A study of Mus musculus with 16 samples.

Results

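The data describe 10 genes that cardiac muscle uses under stretch and during remodelling, in mouse hearts: the muscle ankyrin repeat genes Ankrd1, Ankrd2 and Ankrd23, the Xin actin-binding repeat genes Xirp1 and Xirp2, the LIM domain genes Csrp3, Fhl1 and Fhl2, the skeletal alpha-actin gene Acta1, and Tnfrsf12a, the receptor of the cytokine TWEAK. They are the rows of the deposited gene tables that carry these 10 symbols, out of 24371 genes in all. The hearts were profiled by RNA sequencing of total RNA as bulk tissue, with 16 libraries in 4 groups of 4. In all 4 groups the mice carried the 2-hit model of HFpEF, the form of heart failure in which the ejection fraction is kept: 12 weeks of L-NAME, which blocks nitric oxide synthases, and of fat-rich food. The first group were Myh6Cre Gpr91fl/fl mice given succinate, the second Myh6Cre Gpr91fl/fl mice without succinate, the third Gpr91fl/fl mice given succinate, and the fourth Gpr91fl/fl mice without succinate. GPR91 is the succinate receptor, encoded by Sucnr1, and Myh6Cre is a Cre recombinase under the promoter of a cardiomyocyte myosin gene, so the other cells of the heart keep the floxed gene. Mice with Cre are called Cre hearts below and mice with floxed alleles alone floxed hearts. No group here had the Cre without the floxed alleles, so Cre expression and loss of the receptor cannot be told apart. The labels give neither the age and sex of the mice nor the dose of succinate, and they do not say that each library is a separate animal, so the p-values here speak of the spread among these libraries, which may be technical.

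Cardiomyocytes sense load at the Z-disc, at the elastic part of titin and at the intercalated disc. Ankrd1 and its relatives Ankrd2 and Ankrd23 encode proteins that bind the I-band part of titin and also enter the nucleus; Ankrd1 is known as one of the genes most readily induced by stretch and by hypertrophy in the heart. Csrp3 encodes muscle LIM protein of the Z-disc, Fhl1 and Fhl2 encode LIM-only proteins that bind titin, and the Xirp proteins bind actin at the intercalated disc. Acta1 is the main sarcomeric actin gene of skeletal muscle and is also expressed in the fetal heart. Its return in the adult heart is a textbook marker of remodelling, next to the adult cardiac actin gene Actc1. Tnfrsf12a is induced by injury and growth signals in many tissues.

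The promoters of the genes on which the results below turn most, Ankrd1, Ankrd23 and Acta1, are printed with that of Actc1, the relative of Acta1 used as its denominator. They are taken from RefSeq on the build GRCm38.p6, each running from 250 bases before the annotated start to 50 bases after it, 5′ to 3′ on the gene's own strand, and all 4 genes lie on the minus strand. Capitals mark matches to the M-CAT element bound by TEAD factors (CATTCC, or GGAATG where it lies on the other strand) and to the CArG box bound by SRF; the 2 motifs did not overlap in these windows. Ankrd23 has a pair of annotated starts, and both are shown.
Ankrd1 chr19:36119795-36120094: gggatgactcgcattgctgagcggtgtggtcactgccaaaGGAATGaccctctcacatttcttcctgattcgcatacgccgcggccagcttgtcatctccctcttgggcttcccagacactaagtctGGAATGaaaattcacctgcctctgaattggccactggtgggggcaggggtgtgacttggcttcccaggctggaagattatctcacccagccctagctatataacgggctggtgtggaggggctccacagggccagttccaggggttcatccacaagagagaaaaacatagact
Ankrd23 chr1:36536507-36536806: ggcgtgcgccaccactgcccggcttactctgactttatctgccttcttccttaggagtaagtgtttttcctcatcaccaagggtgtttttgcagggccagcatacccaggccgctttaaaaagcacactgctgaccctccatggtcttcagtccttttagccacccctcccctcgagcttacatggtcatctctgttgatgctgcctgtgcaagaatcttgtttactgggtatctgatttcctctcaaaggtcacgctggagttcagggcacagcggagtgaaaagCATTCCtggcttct
Ankrd23 chr1:36535690-36535989: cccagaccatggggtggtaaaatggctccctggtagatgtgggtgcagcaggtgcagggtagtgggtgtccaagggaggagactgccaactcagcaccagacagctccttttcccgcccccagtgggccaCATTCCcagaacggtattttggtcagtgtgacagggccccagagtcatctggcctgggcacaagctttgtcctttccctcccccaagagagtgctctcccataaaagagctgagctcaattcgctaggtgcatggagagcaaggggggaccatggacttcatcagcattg
Acta1 chr8:123894726-123895025: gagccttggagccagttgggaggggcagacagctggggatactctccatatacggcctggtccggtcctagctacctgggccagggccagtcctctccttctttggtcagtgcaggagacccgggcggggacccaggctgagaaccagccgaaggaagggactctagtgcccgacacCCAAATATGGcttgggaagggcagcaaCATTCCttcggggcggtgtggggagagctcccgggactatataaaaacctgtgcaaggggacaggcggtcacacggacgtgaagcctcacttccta
Actc1 chr2:114052826-114053125: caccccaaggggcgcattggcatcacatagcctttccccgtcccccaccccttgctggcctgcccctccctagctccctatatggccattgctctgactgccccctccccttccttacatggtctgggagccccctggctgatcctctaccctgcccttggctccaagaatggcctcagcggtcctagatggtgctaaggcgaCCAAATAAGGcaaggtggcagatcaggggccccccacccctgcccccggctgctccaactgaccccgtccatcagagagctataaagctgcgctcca
Ankrd1 held 2 M-CAT matches, at 210 and 123 bases before its start, and no CArG box. Acta1 held both motifs, the CArG box at 73 bases and the M-CAT at 46 bases before its start. Actc1 held a CArG box at 47 bases before its start and no M-CAT. Promoters were matched for 9 of the 10 genes, Xirp1 having no entry. M-CAT letters stood in 3 of these 9 genes (Ankrd1, Ankrd23 and Acta1) and in 14.7% of all 32851 promoters of the same length. CArG boxes stood in 3 of 9 (Acta1, Fhl1 and Fhl2) and in 1.63% of all promoters. The letters of a TATA box (TATAAA) stood in 4 of 9 (Acta1, Ankrd2, Fhl1 and Fhl2) and in 13.6%. In Acta1 and Ankrd2 they lay on the gene's own strand. In Fhl1 and Fhl2 they lay only on the opposite strand and do not mark a TATA box of the gene. Both strands were searched for all 3 motifs. A gene was counted if any of its annotated starts held a match, while the shares count single promoters (32851, of 27025 genes). Genes with a pair of starts, such as Ankrd23, thus had a further window to match. A match of letters in a window says nothing of binding in these hearts.

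Library totals ran between 27835235 and 34700996 counts, and 23.5% to 27.7% of counts came from mitochondrially encoded genes. Cardiomyocyte markers summed to between 35148 and 57731 CPM (read counts scaled to a common library size with TMM factors), abundant in every library, and white adipocyte markers to at most 1.96 CPM. The receptor gene Sucnr1 had 0 to 21 counts in a library and was not lower in Cre hearts, so at this depth in whole tissue it gives no check of the deletion. Libraries within the Cre group without succinate stood apart from each other: all 10 genes were above their group mean in replicate 1 (median deviation 0.41 log2) and none were in replicate 4 (median deviation -0.45 log2). That replicate 1 also had the lowest cardiomyocyte marker sum of the 16 libraries, 35148 CPM, and the highest sum of atrial markers, 1649 CPM, most of it Nppa. Their part in the results was not tested, and results that rest on replicate 1 are given with and without it. In bulk samples, fewer cells of a type and less RNA per cell cannot be told apart.

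Per length of transcript, Ankrd1 and Csrp3 were among the most abundant mRNAs of these hearts and Ankrd2 was close to absent. In the authors' deposited FPKM values, averaged over 16 libraries, Ankrd1 had 1507 FPKM and stood at rank 26 of 24371 genes, and Csrp3 had 1141 FPKM at rank 40. Fhl2 followed with 566 FPKM, Acta1 with 420.0 FPKM and Ankrd23 with 231 FPKM. Tnfrsf12a (91.1 FPKM), Xirp2 (52.6 FPKM), Xirp1 (44.5 FPKM) and Fhl1 (28.8 FPKM) were lower, and Ankrd2 averaged 0.209 FPKM at rank 13168. The members differed in how far they moved: between the lowest and the highest library Csrp3 spanned 1.55-fold and Fhl2 1.86-fold in TMM-scaled CPM, against 5.87-fold for Ankrd1, 6.71-fold for Acta1 and 6.92-fold for Tnfrsf12a.

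**Figure D1:**
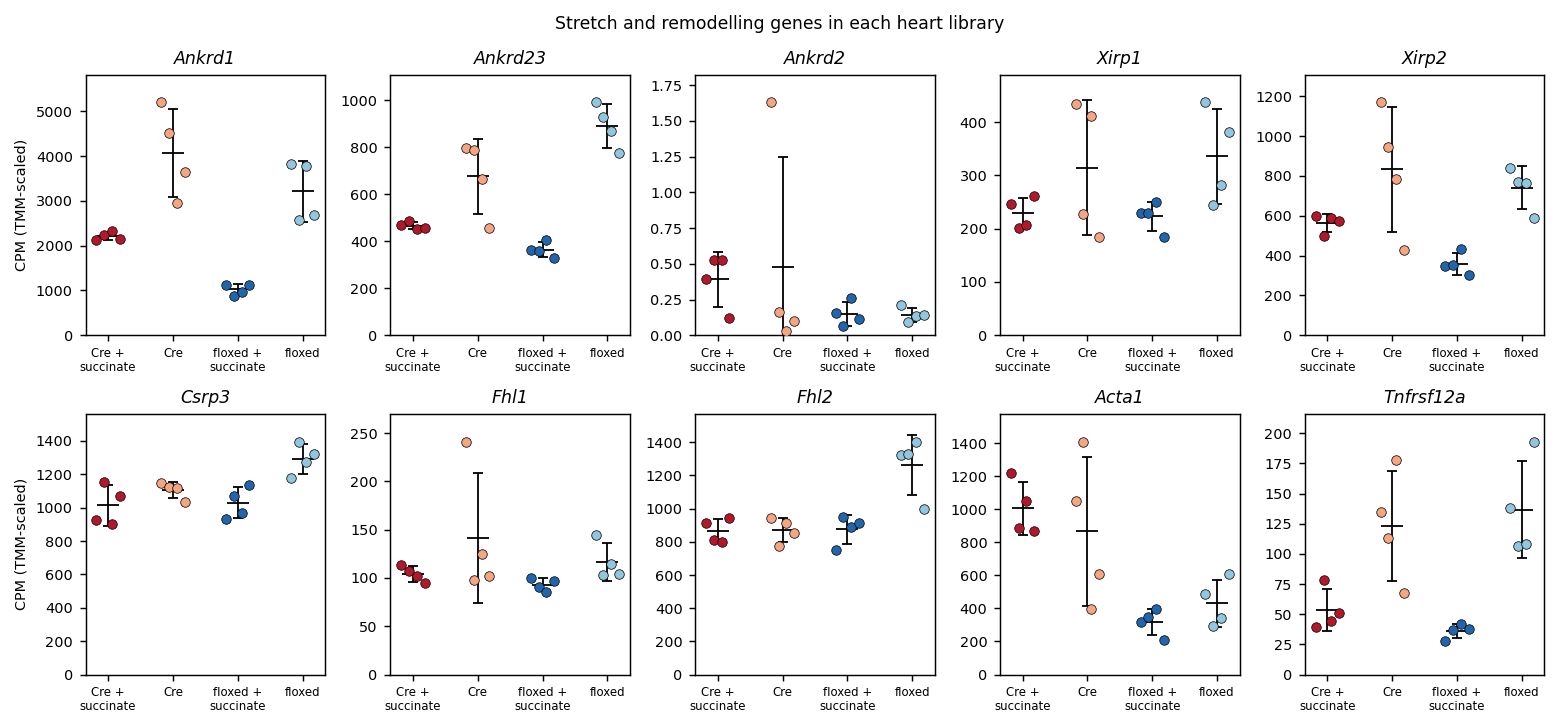
TMM-scaled CPM of each of the 10 genes in every library, by group; each point is a library, and bars give the mean ± SD of 4 libraries. Ankrd1 in Cre hearts with succinate lies between 2135 and 2319 CPM, above all 4 floxed hearts with succinate and below all 4 Cre hearts without it.

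Succinate was set against no succinate first in floxed hearts, where the receptor gene is intact. Of the 10 genes 6 fell, 4 did not pass, and none rose: Ankrd1, Ankrd23, Xirp2, Csrp3, Fhl2 and Tnfrsf12a (edgeR quasi-likelihood test, adjusted p under 0.05 over all 14607 genes tested). Over all genes tested, 13.1% passed in this comparison and 5.64% passed as lower. The median log2 change of the 10 genes was -0.56, beside 0.0024 over all genes tested. All 10 genes passed the filter on low counts.

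Ankrd1 had 1129, 886, 963 and 1124 CPM in floxed hearts with succinate, against 3815, 2582, 3791 and 2684 CPM in floxed hearts without it. Every library with succinate lay far below every library without. The log2 change was -1.65 ± 0.17 (SE, n = 4 per group; edgeR adjusted p = 3.07e-05), a 3.14-fold lower level. Ankrd23, its titin-binding relative, had 362, 359, 406 and 328 CPM with succinate, against 991, 928, 869 and 775 CPM without. The groups were again apart, and the log2 change was -1.29 ± 0.14 (edgeR adjusted p = 3.69e-05). Ankrd2, the relative best known from skeletal muscle, had only 2 to 8 counts in a library with succinate, against 3 to 6 without. Those counts are too few to show a difference (log2 change 0.08 ± 0.996 in the edgeR fit, adjusted p = 0.969).

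Among the genes of the intercalated disc, Xirp2 had 347, 352, 433 and 304 CPM in floxed hearts with succinate, against 841, 769, 767 and 590.0 CPM without. The groups did not overlap, and Xirp2 fell by 1.05 ± 0.21 on the log2 scale (edgeR adjusted p = 0.00475). Its paralog Xirp1 had 229, 229, 249.7 and 185 CPM with succinate, against 437, 244, 281 and 382 CPM without. The lowest library without succinate fell inside the range of those with it, and the log2 change of -0.59 ± 0.24 did not pass (edgeR adjusted p = 0.112; 0.0439 with the 2 floxed groups fitted alone).

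Of the LIM genes, Fhl2 had 753, 949, 888 and 911 CPM in floxed hearts with succinate, against 1323, 1332, 1403 and 998 CPM without. Replicate 4 without succinate was the lowest of its group and still above every library with succinate. The log2 change was -0.53 ± 0.11 (edgeR adjusted p = 0.00612). Csrp3 had 934, 1073, 971 and 1138 CPM with succinate, against 1177, 1395, 1272 and 1324 CPM without, groups that do not overlap but lie close. Its log2 change was the smallest that passed among the 10 genes, -0.33 ± 0.10 (edgeR adjusted p = 0.0371). It lost the call in 7 of 25 alternatives, 5 of which left out 1 library (floxed with succinate replicates 1 or 3, or floxed without succinate replicates 2, 3 or 4), with adjusted p up to 0.123. Fhl1 had 100.1, 90.2, 85.8 and 96.8 CPM with succinate, against 144, 103, 114 and 104 CPM without. These groups too were apart, though the log2 change of -0.32 ± 0.21 did not pass (edgeR adjusted p = 0.349).

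Tnfrsf12a moved the most of the 10 genes. It had 27.9, 37.0, 41.8 and 37.5 CPM in floxed hearts with succinate, against 138, 107, 109 and 193 CPM without. The highest library with succinate stood far below the lowest without it, and the log2 change was -1.92 ± 0.28 (edgeR adjusted p = 0.000625), a 3.79-fold lower level. Acta1 had 315, 349, 398 and 209.9 CPM with succinate, against 487, 292, 343 and 606 CPM without. The groups overlapped, and the log2 change of -0.44 ± 0.32 did not pass (edgeR adjusted p = 0.396). In all, 7 of the 10 genes had groups that did not overlap with succinate lower, beside 7.65% of all genes tested.

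In floxed hearts, macrophage markers also fell with succinate (5 of 6 passed as lower, beside 5.64% of all genes tested). Their summed level was 115 to 202 CPM with succinate, against 222 to 324 CPM without. Summed cardiomyocyte markers were 54378 to 57731 CPM with succinate, against 42949.8 to 48512 CPM without. Of the 8 markers 2 (Myh6 and Ryr2) passed as higher, beside 13.1% of all genes passing in either direction. Most of the difference in the sums was Myh6, which averaged 24551 CPM with succinate and 15206 CPM without. The median log2 change of the 8 was 0.07, and 1 of them, Myl2, was lower with succinate (7461 against 8275 CPM). The part of these markers in the falls of the 10 genes was not tested.

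**Figure D2:**
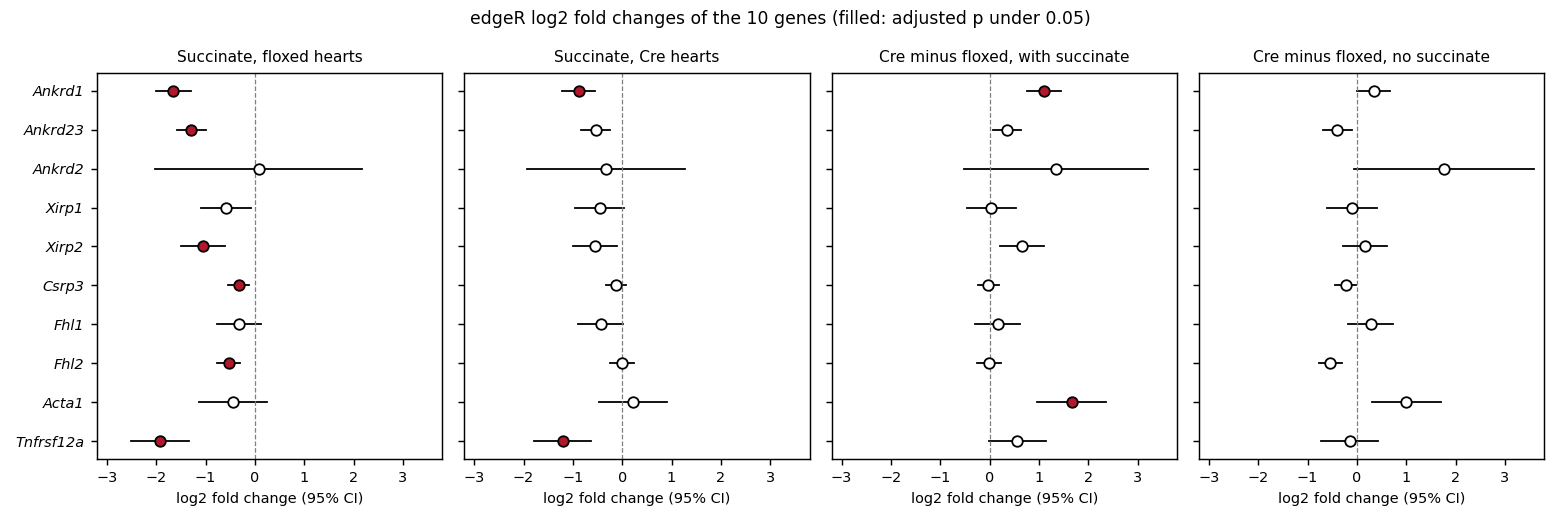
Log2 fold changes of the 10 genes from the edgeR fit with 95% confidence intervals, in 4 comparisons of 4 against 4 libraries; filled points have an adjusted p under 0.05. In floxed hearts 6 genes are filled on the side of lower with succinate; with succinate in both groups, Ankrd1 and Acta1 are filled on the side of higher in Cre hearts.

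The same comparison in Cre hearts asks what succinate does where cardiomyocytes were made to lose the receptor. Only Ankrd1 and Tnfrsf12a fell here, and 8 of the 10 genes did not pass, beside 0.917% of all genes tested in either direction and 0.315% passing as lower. That share stands for 134 genes, a count that ran from 22 to 485 over the alternatives and was lowest without replicate 4 of the Cre hearts with succinate. The median log2 change of the 10 genes was -0.45, beside 0.01 over all genes tested. Ankrd1 had 2135, 2236, 2319 and 2140.2 CPM in Cre hearts with succinate, against 5201, 4509, 2949 and 3655 CPM in Cre hearts without it. The treated libraries lay close together (coefficient of variation 3.96%) and below all the untreated ones, which ranged widely. The log2 change was -0.89 ± 0.16 (SE, n = 4 per group; edgeR adjusted p = 0.0173). Without Cre replicate 1 it was -0.76 with adjusted p = 0.0516. It also lost the call without replicate 1 or replicate 4 of the Cre hearts with succinate (adjusted p = 0.065 and 0.0786).

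Tnfrsf12a had 39.8, 78.2, 44.5 and 51.0 CPM in Cre hearts with succinate, against 135, 113, 178 and 67.9 CPM without. One library of each group lay inside the other's range, and the log2 change of -1.21 ± 0.27 was only just past the threshold (edgeR adjusted p = 0.0497). The call was lost in 16 of 25 alternatives, among them other size factors, no filter, a fit on the groups compared alone, a replicate block and 12 fits without 1 library; adjusted p over all 25 ran between 0.00594 and 0.166. Without Cre replicate 1 the change was -1.18 with adjusted p = 0.166. The direction was the same in all 25.

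Ankrd23 and Xirp2, which had fallen in floxed hearts, did not pass in Cre hearts in the edgeR fit of all 16 libraries. Ankrd23 had 468, 486, 453 and 456 CPM with succinate, against 797, 789.9, 666 and 455 CPM without. Cre replicate 4 alone brought the groups into overlap, and the log2 change was -0.54 ± 0.14 (edgeR adjusted p = 0.07). DESeq2 called Ankrd23 here (adjusted p = 0.00816), as did edgeR with no filter (0.0427) and with a replicate block (0.049). Without Cre replicate 4 it was -0.70 with adjusted p = 0.00403, and without Cre replicate 1 it was -0.47 with adjusted p = 0.235. Xirp2 had 600.3, 498, 587 and 576 CPM with succinate, against 1169, 948, 784 and 429.5 CPM without, and again replicate 4 lay below all the treated libraries. Its log2 change was -0.56 ± 0.21 (edgeR adjusted p = 0.233), and -0.79 without Cre replicate 4 (adjusted p = 0.0155). Fhl2 had 912, 809.5, 799 and 945 CPM with succinate, against 941, 776, 914 and 853 CPM without, a log2 change of -0.01 with a 95% interval between -0.25 and 0.23. The 2 groups lay over each other.

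Of the others, Xirp1 ranged between 201 and 262 CPM in Cre hearts with succinate and between 184 and 434 CPM without (log2 change -0.46 ± 0.24, edgeR adjusted p = 0.409). Csrp3 had 901 to 1155 CPM with succinate and 1036 to 1145 CPM without (log2 change -0.13 ± 0.10, adjusted p = 0.614). Fhl1 had 94.4 to 113 CPM with succinate and 97.7 to 241 CPM without, the 241 CPM being replicate 1; the log2 change was -0.44, and -0.07 without that library. Acta1 had a log2 change of 0.21 ± 0.32 (adjusted p = 0.822). Ankrd1 was the one gene of the 10 whose groups did not overlap, beside 3.39% of all genes tested.

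Whether the succinate effect differed between genotypes was tested as an interaction. None of the 10 genes passed, and of the 14607 tested genes 0% passed (edgeR, smallest adjusted p = 0.93); DESeq2 also called 0 of the 10 and 4 genes in all. At an unadjusted p under 0.05 there were 3 of the 10 genes and 709 of all genes. The 3 were Ankrd23, whose succinate effect in Cre hearts was 0.75 ± 0.20 log2 above that in floxed hearts (SE; edgeR adjusted p = 0.93), Ankrd1 at 0.76 ± 0.23 (adjusted p = 0.93) and Fhl2 at 0.52 ± 0.16 (adjusted p = 0.961). A gene that passed in floxed hearts and not in Cre hearts is therefore not shown to differ between them. Averaged over both genotypes, 7 of the 10 genes were lower with succinate, beside 19% of all genes tested in either direction and 8.45% as lower: Xirp1 joined the 6 of the floxed comparison (log2 change -0.52 ± 0.17, edgeR adjusted p = 0.0385). Xirp1 lost this call in 12 of 24 alternatives, 9 of which left out 1 library (replicates 1, 2 or 3 of the Cre hearts with succinate, 1 or 3 of the Cre hearts without it, or 1 or 4 of either floxed group), with adjusted p up to 0.107. Csrp3 lost it in 6, of which 5 left out 1 library (replicates 1 or 3 of either genotype with succinate, or Cre replicate 2), with adjusted p up to 0.0697, and Fhl2 lost it without replicate 1 of the floxed hearts with succinate (0.0597). All 10 had a negative average, with a median of -0.45 log2.

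Genotype was then compared with succinate in both groups. Ankrd1 and Acta1 were higher in Cre hearts and the other 8 genes did not pass, beside 0.691% of all genes tested in either direction and 0.548% as higher. The median log2 difference of the 10 genes was 0.46, beside -0.01 over all genes tested. These values share the floxed hearts with succinate with the first comparison. Ankrd1 had 2135, 2236, 2319 and 2140.2 CPM in Cre hearts with succinate, against 1129, 886, 963 and 1124 CPM in floxed hearts with succinate. The lowest Cre library was well above the highest floxed one, and the log2 difference was 1.11 ± 0.16 (SE, n = 4 per group; edgeR adjusted p = 0.00236), a 2.15-fold higher level. The call held in all 25 alternatives, with adjusted p of at most 0.0142.

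Acta1 had 1216, 888, 1049 and 871 CPM in Cre hearts with succinate, against 315, 349, 398 and 209.9 CPM in floxed hearts with succinate. The groups were far apart, and the log2 difference was 1.66 ± 0.33 (edgeR adjusted p = 0.031), a 3.16-fold higher level. The direction was the same in all 25 alternatives, but the call was lost in 10 of them: with no filter (adjusted p = 0.0987), with a replicate block (0.0835), and without any 1 of the 8 libraries of these groups (0.0543 to 0.112). Acta1 and Actc1 share 86.2% of their 1134 coding bases, and the longest run identical between their transcripts is 29 bases. A read longer than this run cannot match both transcripts exactly. How reads were split between the 2 genes was not tested. Ankrd23 (453 to 486 CPM in Cre hearts and 328 to 406 CPM in floxed hearts, log2 difference 0.36 ± 0.14) and Xirp2 (498 to 600.3 CPM and 304 to 433 CPM, log2 difference 0.66 ± 0.21) did not overlap either, though neither passed in the edgeR fit of all 16 libraries (adjusted p = 0.32 and 0.196). Xirp2 passed with these 2 groups fitted alone (adjusted p = 0.0173) and without Cre replicate 4 (0.0387). Groups with Cre hearts higher and no overlap were thus found for 4 of the 10 genes, beside 3.96% of all genes tested.

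Tnfrsf12a had 39.8 to 78.2 CPM in Cre hearts with succinate, against 27.9 to 41.8 CPM in floxed hearts with succinate, and did not pass (log2 difference 0.57 ± 0.27, edgeR adjusted p = 0.468). Fhl2, Csrp3 and Xirp1 had log2 differences of -0.01, -0.02 and 0.04, and Fhl1 of 0.16. Their groups overlapped in all 4 cases. Ankrd2 had 12, 17, 18 and 4 counts in Cre hearts with succinate, against 5, 2, 8 and 3 counts in floxed hearts with succinate. In 3 of the 4 Cre libraries the count was above all the floxed ones, and the log2 difference of 1.35 ± 0.88 did not pass (edgeR adjusted p = 0.636). Ankrd2 passed the filter only through 4 Cre libraries.

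Without succinate, none of the 10 genes passed between genotypes, beside 0.11% of all genes tested. DESeq2 called 1 of them, Fhl2, and 5 had an unadjusted p under 0.05 in edgeR, beside 1278 of all genes. Fhl2 had 941, 776, 914 and 853 CPM in Cre hearts without succinate, against 1323, 1332, 1403 and 998 CPM in floxed hearts without succinate. All 4 Cre libraries were lower, and the log2 difference was -0.54 ± 0.11 (SE, n = 4 per group; edgeR adjusted p = 0.102). Fhl2 thus averaged 866 ± 72.9 CPM in Cre hearts with succinate, 871 ± 73.2 CPM in Cre hearts, 875 ± 85.4 CPM in floxed hearts with succinate and 1264 ± 181 CPM in floxed hearts (SD, n = 4 each), and only the last group stood apart from the other 3. Csrp3 likewise had 1036 to 1145 CPM in Cre hearts and 1177 to 1395 CPM in floxed hearts, apart but not passing (log2 difference -0.22 ± 0.10, adjusted p = 0.538). These 2 of 10 genes had groups apart with Cre lower, beside 2.33% of all genes tested.

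Acta1 had 1051, 1408, 398 and 611 CPM in Cre hearts without succinate, against 487, 292, 343 and 606 CPM in floxed hearts without succinate. Cre replicates 1 and 2 were high and replicates 3 and 4 fell within or close to the floxed range, so that the log2 difference of 1.004 ± 0.33 did not pass (edgeR adjusted p = 0.377). Ankrd1 had 2949 to 5201 CPM in Cre hearts and 2582 to 3815 CPM in floxed hearts, which overlap (log2 difference 0.34 ± 0.16, adjusted p = 0.567; 0.20 without Cre replicate 1). Ankrd23 had 455 to 797 CPM in Cre hearts and 775 to 991 CPM in floxed hearts, overlapping at replicates 1 and 2 of the Cre group (log2 difference -0.40 ± 0.14, adjusted p = 0.407). Over the 4 groups Ankrd1 averaged 2208 ± 87.4 CPM in Cre hearts with succinate, 4079 ± 983 CPM in Cre hearts, 1026 ± 121 CPM in floxed hearts with succinate and 3218 ± 677 CPM in floxed hearts (SD, n = 4 each). In the order of these means, only the 2 highest groups, Cre and floxed hearts without succinate, overlapped with their neighbour.

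The share of Acta1 in the sarcomeric actin mRNA, Acta1 over the sum of Acta1 and Actc1 in FPKM, sets the gene against its adult cardiac relative within a library. It was 11.3%, 9.23%, 10.9% and 7.59% in Cre hearts with succinate and 9.57%, 15.03%, 4.23% and 7.32% in Cre hearts without. In floxed hearts it was 4.05%, 3.52%, 3.82% and 2.65% with succinate and 4.62%, 3.03%, 3.96% and 7.39% without. All 4 Cre hearts with succinate were above all 8 floxed hearts, and all 4 Cre hearts without succinate were above all 4 floxed hearts with it. Within each genotype the groups with and without succinate overlapped, and so did the genotypes without succinate. The difference with succinate was 6.24 percentage points between Cre and floxed hearts, with p = 0.0286 in a two-sided exact permutation test, the smallest p that 4 against 4 libraries allow, and 0.114 after Benjamini-Hochberg adjustment over 4 comparisons. Without succinate it was 4.29 points (exact p = 0.143), and 2.29 without Cre replicate 2. The succinate differences were -1.24 points in floxed hearts (exact p = 0.257; -0.36 without floxed replicate 4) and 0.71 points in Cre hearts (exact p = 0.83). Actc1 itself averaged 8054 to 8712 CPM in the 4 groups and passed in none of the comparisons.

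**Figure D3:**
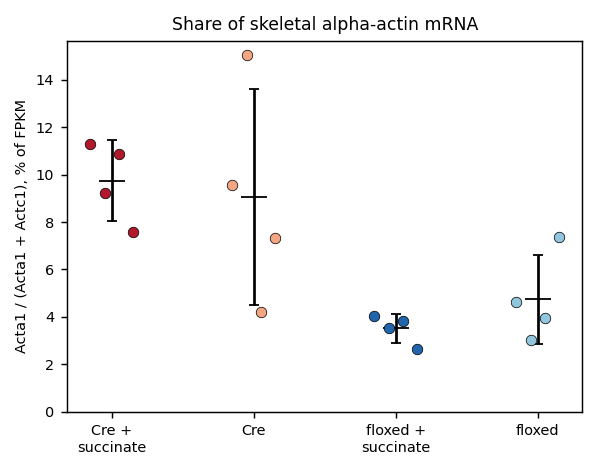
Acta1 as a percent of Acta1 plus Actc1, from deposited FPKM, in every library; points are libraries and bars the mean ± SD of 4. Cre hearts with succinate lie between 7.59% and 11.3%, and floxed hearts with succinate between 2.65% and 4.05%.

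Some markers of skeletal muscle and of the atrium were also higher in Cre hearts. Skeletal muscle markers summed to 36.1 to 49.7 CPM in Cre hearts with succinate, 27.7 to 43.4 CPM in Cre hearts, 14.3 to 17.95 CPM in floxed hearts with succinate and 18.3 to 21.3 CPM in floxed hearts. Of the 10 markers found, 5 passed the filter, and with succinate 3 were higher in Cre hearts, beside 0.548% of all genes tested. Atp2a1, the fast-muscle calcium pump, had 17.2 to 20.6 CPM against 0.44 to 0.57 CPM in floxed hearts. The others were the fast troponin genes Tnni2 and Tnnt3. Tnnt3 had at most 12 counts in a floxed library and was above the filter's cutoff in 8 Cre libraries and 2 floxed ones. It passed the filter through the Cre libraries, where it is high, so its difference is given as a description. The myosin genes Myh1 and Myh2, which define fast skeletal fibres, had at most 6 and 3 counts in a library and Pvalb at most 16. Atrial markers summed to 491 to 969 CPM in Cre hearts with succinate, 385 to 1649 CPM in Cre hearts, 117 to 158 CPM in floxed hearts with succinate and 199 to 502 CPM in floxed hearts. Nppa, the atrial natriuretic peptide gene that the stressed ventricle also switches on, made up most of these sums, while the atrial myosin light chain gene Myl7 and the calcium pump regulator Sln had at most 11 and 2 counts in a library. Of the 4 atrial markers tested, Nppa and Dkk3 were higher in Cre hearts with succinate. Kcnj3, a potassium channel gene, lay the other way, at 25.7 to 39.3 CPM in Cre hearts with succinate, against 48.3 to 60.8 CPM in floxed hearts with succinate, and did not pass (log2 difference -0.69 ± 0.19, edgeR adjusted p = 0.126). Fibroblast markers summed to 1269.6 to 2045 CPM in Cre hearts with succinate, against 1019 to 1462 CPM in floxed hearts with succinate, and none of the 8 passed. The part of these genes in the difference of Acta1 was not tested.

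Within groups, libraries did not move together in all of the genes. After group means were subtracted, Ankrd23 and Xirp2 followed each other most closely, with Pearson's r of 0.94 and Spearman's rho of 0.80 over 16 libraries, and r was 0.84 without the 2 libraries farthest from the median. Ankrd1 followed both less (r of 0.37 with Ankrd23 and 0.41 with Xirp2) and did not follow Tnfrsf12a (r of -0.19). Over the 36 pairs of genes without Ankrd2, 28 had a positive r, with a median of 0.24, and 24 had one without Cre replicate 1, with a median of 0.14. These correlations describe 16 libraries that share depth and group structure, and carry no test. The spread itself differed between groups: Ankrd1 varied by 3.96% and Ankrd23 by 3.22% (coefficient of variation of CPM) in Cre hearts with succinate, against 24.1% and 23.6% in Cre hearts without it.

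**Figure D4:**
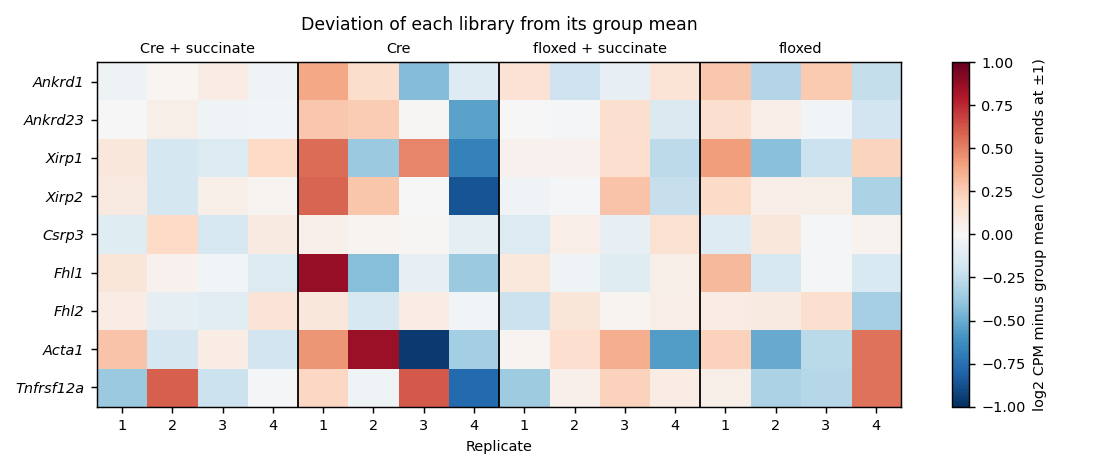
Log2 CPM of 9 genes in each library minus the mean of its group of 4; red is above and blue below the group mean, and the colour scale ends at 1 log2 unit. In the Cre group without succinate, replicate 1 is above the mean and replicate 4 below it in all 9 genes.

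The genes most like Ankrd1 over all 16 libraries were P4hb, a protein disulfide isomerase of the endoplasmic reticulum (r = 0.95), Cox19, an assembly factor of cytochrome c oxidase (r = 0.93), the small GTPase gene Ralb (r = 0.92), the non-coding Hectd2os (r = 0.92) and Lrrcc1 (r = 0.91), among 11566 genes with a mean of at least 1 log2 CPM. After subtracting group means the 5 closest included Ralb (r = 0.89), Dkk3 (r = 0.87), Ninl (r = 0.86) and Arhgap4 (r = 0.84). Dkk3 is also in the list of atrial markers. These are Pearson correlations of log2 CPM over 16 libraries, given as a description. Hectd2os had succinate effects of -1.42 ± 0.17 log2 in floxed hearts and -0.34 ± 0.16 log2 in Cre hearts (SE), beside -1.65 and -0.89 for Ankrd1, and P4hb had -0.43 ± 0.08 and -0.24 ± 0.08.

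Genes that work with these 10 were followed in lists, each described by its counts and its median beside 0.0024 log2 over all genes tested in floxed hearts and 0.01 in Cre hearts. Of 19 tested targets of SRF and its MRTF coactivators, 7 fell and none rose with succinate in floxed hearts, beside 5.64% of all genes passing as lower, with a median of -0.57 log2. They included Srf itself (-0.61 ± 0.13 log2, SE), the calponin gene Cnn2 (-0.52 ± 0.11), filamin A, Flna (-0.70 ± 0.17), and Tagln2 (-0.83 ± 0.20); the other 3, named here after their values were seen, were Tpm4, Myh9 and Zyx. In Cre hearts none of the 19 passed, with a median of -0.13 log2. Of all genes tested 0.917% passed there in either direction and 0.315% as lower. A list of this size with none passing lies near that share. None of the 19 passed in the interaction either, so they are not shown to differ between genotypes. Tagln and Cnn1 of this list are also markers of smooth muscle; they had log2 changes of -0.91 ± 0.37 and -1.60 ± 0.64 in floxed hearts and did not pass (edgeR adjusted p = 0.124 and 0.109). Of the 7 markers of smooth muscle and pericytes none passed there, with a median of -0.35 log2. Their sum was 945 to 1173 CPM in floxed hearts with succinate, against 923 to 1181 CPM in floxed hearts without it. Most of this sum was Rgs5, which averaged 794 CPM with succinate and 772 CPM without. Of the 7 log2 changes 5 were negative and 2 positive. Myh11 averaged 44.4 CPM with succinate and 70.3 CPM without, and Tagln 23.6 and 44.3 CPM. Cnn1 averaged 1.17 CPM with succinate and 3.56 CPM without, and Mylk 33.9 and 43.3 CPM. The part of these 7 markers in the falls of the SRF targets was not tested. Srf had 94.1 ± 6.92 CPM in Cre hearts with succinate and 123 ± 21.3 CPM in Cre hearts, and 91.9 ± 11.7 CPM in floxed hearts with succinate and 139.9 ± 19.4 CPM in floxed hearts (SD, n = 4 each). Among 8 LIM-only and actin relatives, 3 fell in floxed hearts, Csrp1 (-0.59 ± 0.14), and the cytoplasmic actin genes Actg1 (-0.58 ± 0.14) and Actb (-0.57 ± 0.14), the list median being -0.58 log2; none passed in Cre hearts, with a median of -0.19 log2.

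Among 27 tested partners at titin and the Z-disc, 5 fell and 3 rose with succinate in floxed hearts, with a median of -0.10 log2. Of all genes tested 13.1% passed there in either direction, 5.64% as lower and the rest as higher. Synpo2l, a Z-disc protein that links to actin bundling, fell by 1.23 ± 0.17 on the log2 scale in floxed hearts and by 1.13 ± 0.17 in Cre hearts (edgeR adjusted p = 0.000358 and 0.00667). The muscle ubiquitin ligase genes Fbxo32 and Trim63 rose in floxed hearts by 1.03 ± 0.17 and 0.60 ± 0.12 log2, and Tcap, the titin cap protein gene, by 0.86 ± 0.17. The other 4 that fell, named here after their values were seen, were Flnc, Pdlim7, Cryab and Pdlim1, with log2 changes between -0.82 and -0.40. In Cre hearts Synpo2l fell and Trim63 rose (0.59 ± 0.12 log2, edgeR adjusted p = 0.0278), beside 0.917% of all genes tested in either direction. The list median there was 0.0012 log2. Synpo2l had 105 ± 9.90 CPM in Cre hearts with succinate and 230.3 ± 67.4 CPM in Cre hearts, and 99.7 ± 11.9 CPM in floxed hearts with succinate and 234 ± 24.8 CPM in floxed hearts (SD, n = 4 each).

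In the lists that follow, the counts in floxed hearts stand beside 13.1% of all genes passing in either direction and 5.64% as lower. Counts of 2 or 3 genes in a list of 12 to 16 lie close to the first share. The counts in Cre hearts stand beside 0.917% in either direction and 0.315% as lower, and lists with none passing there lie near those shares. Of 16 intercalated disc genes, the desmosomal Dsg2 (0.99 ± 0.18 log2) and Pkp2 (0.40 ± 0.09) rose and the actin regulator Enah (-0.72 ± 0.16) fell in floxed hearts, and none passed in Cre hearts (list medians 0.09 and 0.03 log2). Of 12 genes of the TWEAK pathway around Tnfrsf12a, Traf2 (-0.48 ± 0.13) and Relb (-0.47 ± 0.15) fell in floxed hearts and none passed in Cre hearts (medians -0.23 and -0.07 log2). The ligand gene Tnfsf12 itself did not pass in either, at 7.38 ± 1.17 CPM in Cre hearts with succinate and 7.60 ± 1.29 CPM in Cre hearts, and 6.59 ± 1.89 CPM in floxed hearts with succinate and 8.20 ± 0.816 CPM in floxed hearts (SD, n = 4 each). Of 20 stretch-responsive transcription factors and cofactors 3 rose and 3 fell in floxed hearts (median 0.0019 log2), led by Srf, which the list of SRF targets also holds, Mef2d (0.54 ± 0.12), Foxo3 (0.49 ± 0.11) and Foxo1 (0.37 ± 0.10), and none passed in Cre hearts. The other 2 that fell, named after their values were seen, were Abra (-1.23 ± 0.36), which encodes an activator of MRTF signalling, and the SRF coactivator Myocd (-0.72 ± 0.20).

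Of 12 targets of YAP and TEAD, of which TEAD factors bind M-CAT elements, Nuak2 (-1.02 ± 0.22 log2) and Axl (-0.41 ± 0.11) fell in floxed hearts. None passed in Cre hearts (medians -0.13 and -0.03 log2). Of 15 genes listed for stretch sensing, Itgb1bp2, which encodes melusin, rose in both genotypes (0.35 ± 0.09 log2 in floxed hearts and 0.41 ± 0.09 log2 in Cre hearts). Lmna of the same list fell in floxed hearts (-0.35 ± 0.10). Of 12 hypertrophic stress genes 6 fell and 2 rose with succinate in floxed hearts (median -0.83 log2). In Cre hearts 2 fell and 1 rose (median -0.44 log2), beside 0.917% of all genes tested in either direction and 0.315% as lower. The 2 that fell in Cre hearts were Myh7 and Gdf15 and the 1 that rose was Myh6, whose transcript shares a run of 245 identical bases with that of Myh7, so that the split of reads between this pair is uncertain. With succinate in both groups, 5 of these 12 were higher in Cre than in floxed hearts, beside the 0.691% of all genes given above, with a list median of 0.93 log2: Uchl1 (0.92 ± 0.12 log2), Mybpc2 (0.93 ± 0.14), Nppa (3.13 ± 0.46), Tnni1 (2.35 ± 0.48) and Gdf15 (2.14 ± 0.43), the last named after its value was seen; Tnni1 stayed at or under 0.616 CPM in every library and had at most 3 counts in a floxed one. It passed the filter only through 7 Cre libraries, so it had to differ and is given as a description. The list was chosen with earlier results of these data known, so its count of 5 is also a description and no test of the list. In the 8 other lists none passed in that comparison, nor between genotypes without succinate, where Tnni1 and Uchl1 of the stress list were higher in Cre hearts (2.93 ± 0.47 and 0.90 ± 0.12 log2).

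**Figure D5:**
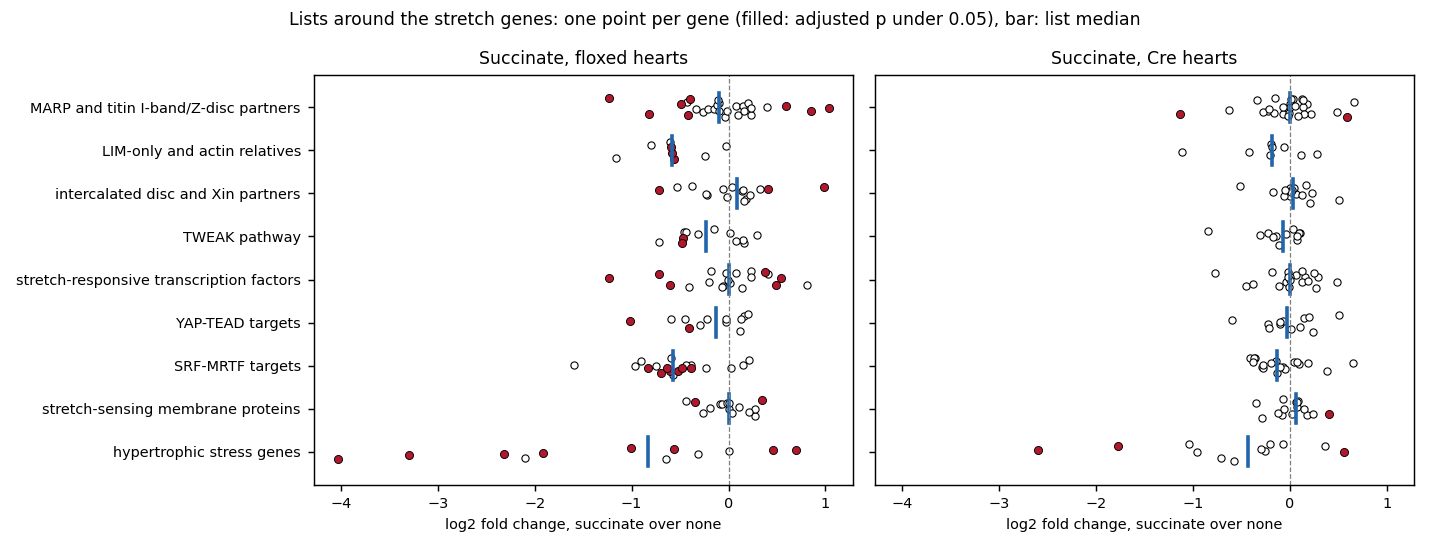
Log2 fold change, succinate over no succinate, of every tested gene of 9 lists in floxed hearts and in Cre hearts; each point is a gene, filled points have an adjusted p under 0.05, and bars mark list medians. The SRF-MRTF targets have a median of -0.57 in floxed hearts and -0.13 in Cre hearts.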

How the data were processed

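Heart samples of 16 libraries in 4 groups of 4 were compared. The authors deposited a table of gene counts and a table of FPKM values for the same libraries; the submitters' processing notes name fastp, HISAT2, HTSeq, DESeq2 and R 3.2.0 and the build GRCm39, with no versions for the other tools, and no label says how strand was handled. Counts were tested as deposited with edgeR 4.0.16 in R 4.3.3 (minimum count 10 in filterByExpr, which left 14607 of 24371 genes, TMM scaling, 1 mean per group, robust quasi-likelihood test, Benjamini-Hochberg adjustment over all tested genes, threshold 0.05). All 16 libraries entered each fit, so the groups share 1 estimate of the spread. FPKM values served only for levels per length and for the share of Acta1, tested by an exact permutation over libraries. The fits were tested on simulated data. Alternatives were DESeq2 1.42.0, limma 3.58.1 on log2(FPKM + 1) and log2(FPKM + 0.1), RLE size factors, other filters (none, and minimum count 50), counts without mitochondrially encoded genes, the groups compared alone, a replicate block and each library left out. A count of 3 in a library corresponds to 0.0865 to 0.108 CPM, a limit of counting error only. No replicate pair agreed within sampling noise.

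The 10 genes and all lists were chosen with earlier results of these data known. All 10 genes are named, from each list up to 4 genes that passed by smallest p, and the 5 genes most correlated with Ankrd1, of which 1 is not reported here. The genes lie, by the RefSeq table, on chromosomes 19 (Ankrd1, Ankrd2), 1 (Ankrd23, Fhl2), 9 (Xirp1), 2 (Xirp2), 7 (Csrp3), 8 (Acta1), X (Fhl1) and 17 (Tnfrsf12a); gene coordinates of the authors' build were not used here.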

Additional observations from a re-analysis of the deposited data

Results flagged for a closer look

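Of 44 sets of 4 libraries, 1 held a library far from the other 3. The sets were each of the 10 genes, and the share of Acta1 in the sarcomeric actin mRNA, in every group. Ankrd2 had 1.63 CPM (61 counts) in replicate 1 of the Cre hearts without succinate, and the nearest of the others had 0.16 CPM. The gap was 0.92 of the range of the group, above the 95% critical value of Dixon's test for 4 libraries. Chance gives about 1 such library in 20 groups. This library also had the highest Ankrd1, Fhl1 and Xirp2 of the 16, and it is the one with all 10 genes above their group mean.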

How the results depend on the processing

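Over 60 member results and 1465 alternative values, 1353 kept their direction and their side of the threshold, 55 lost a call, 13 gained one and 44 changed sign; none of those 44 passed before or after. With succinate in floxed hearts the count of 6 was 5 or 6, not always of the same genes: with the groups compared alone Csrp3 was lost (adjusted p = 0.0515) and Xirp1 gained (0.0439). In Cre hearts the count of 2 was 3 in DESeq2, 1 with RLE size factors and 1 with the groups compared alone, and ran from 0 to 4 with 1 library left out: 0 without Cre replicate 1 or without replicate 1 or 4 of the Cre hearts with succinate, and 4 without Cre replicate 4. Between genotypes without succinate the count of 0 was 1 in DESeq2 and 0 to 1 with 1 library left out (1 without floxed replicate 4). With succinate the count of 2 was 1 with no filter, 3 with the groups compared alone, where Xirp2 joined, and 1 to 3 with 1 library left out. The average over genotypes gave 7, and 4 to 8 with 1 library left out (4 without replicate 1 of the floxed hearts with succinate). The cause was not tested.

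Replicate numbers did not pair the samples (r of deviations between -0.12 and 0.32 over 24 pairs, 3 over 0.1). With a replicate block the counts were 6, 2, 0, 1, 7 and 0 in the order succinate in floxed hearts, succinate in Cre hearts, genotype without succinate, genotype with succinate, average and interaction; the call lost with succinate was Acta1, and in Cre hearts Tnfrsf12a lost its call (adjusted p = 0.102) while Ankrd23 gained one (0.049). With no filter the count of 2 in Cre hearts was made of Ankrd1 and Ankrd23.

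Signs changed for Ankrd2 with the replicate block (0.22 for succinate in Cre hearts, 0.14 for the average, 0.14 for the interaction), with log2(FPKM + 1) (-4.70e-05 in floxed hearts) and with log2(FPKM + 0.1) (-0.0217 in floxed hearts, 0.34 in Cre hearts, 0.16 for the average and 0.36 for the interaction). In the genotype comparison with succinate, Csrp3 was 0.0104 and Fhl2 0.0225 with log2(FPKM + 1), and 0.0104 and 0.0226 with log2(FPKM + 0.1).

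With 1 library left out, Ankrd2 ran from -0.34 to 0.29 in floxed hearts, -0.71 to 1.96 in Cre hearts, -0.56 to 2.14 between genotypes without succinate, -0.34 to 1.02 for the average and -0.79 to 1.89 for the interaction. Acta1 ran from -0.0249 to 0.55 for succinate in Cre hearts and -0.23 to 0.0534 for the average, and its share of actin from -0.89 to 2.71 points in Cre hearts. Fhl2 ran from -0.0601 to 0.0161 in Cre hearts and -0.0810 to 0.0271 between genotypes with succinate, and Csrp3 from -0.0924 to 0.0300 there. Xirp1 ran from -0.29 to 0.0869 between genotypes without succinate, -0.0434 to 0.0935 with it and -0.0502 to 0.32 for the interaction. Between genotypes without succinate Xirp2 ran from -0.0450 to 0.38, Fhl1 from -0.11 to 0.42 and Tnfrsf12a from -0.38 to 0.0662; Fhl1 ran from -0.26 to 0.26 for the interaction. The Acta1 share ran from -1.81 to -0.36 points for succinate in floxed hearts and from 2.29 to 5.89 between genotypes without succinate.

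The numbers of all genes called moved too. For succinate in floxed hearts 1917 genes became 1018 and 1071 without replicates 1 and 3 with succinate, and 1150 and 1079 without replicates 1 and 3 without it. For succinate in Cre hearts 134 genes became 485 in DESeq2 and 46 with the groups compared alone; they became 28, 62, 49 and 22 without replicates 1 to 4 with succinate, 28 without Cre replicate 1, 85 without replicate 2 of the floxed hearts with succinate and 83 without floxed replicate 3. Between genotypes with succinate 101 genes became 327 in DESeq2 and 67 with log2(FPKM + 1), 67, 44 and 56 without Cre replicates 2, 3 and 4, and 46, 66 and 51 without floxed replicates 1, 2 and 3. Without succinate 16 genes ran from 3 to 90. Depth limits Ankrd2, with at most 61 counts in a library.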
